A study of Mus musculus with 16 samples.

Results

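The 6 mouse genes described here encode 2 ligand and receptor systems of blood vessels. Apelin (Apln) and its receptor (Aplnr) form the first, and angiopoietin 1 (Angpt1), angiopoietin 2 (Angpt2) and the receptors Tie2 (Tek) and Tie1 form the other. They are 6 of the 18193 genes measured, read by 9 probe sets, and every probe set listed with one of these symbols was used. The group was chosen by measured values of these arrays, the lower levels of Aplnr, Tek and Tie1 after dexamethasone in both tissues. Changes of the 6 genes with dexamethasone are therefore given as a description, with no p-value.

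RNA came from cerebella and lungs, each taken whole, of C57BL/6J mice at postnatal day 7. The mice had received either the synthetic glucocorticoid dexamethasone or vehicle, and the series title calls the treatment chronic. Neither its dose nor its schedule is given in the sources used here. Each combination of tissue and treatment had 4 arrays, described by the submitters as biological replicates, 16 in all. The groups are called vehicle cerebellum, dexamethasone cerebellum, vehicle lung and dexamethasone lung below. No group carries an engineered allele according to the labels, and neither sex nor litter is stated in them. Levels are log2 values, so a difference of 1 is a 2-fold change, and errors of differences are moderated standard errors of a fit to all 16 arrays.

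Apelin is a secreted peptide made by endothelial tip cells and, outside vessels, by several other cell types. Its receptor is coupled to G proteins and marks growing and venous endothelium. Angpt1, made mainly by cells around vessels, activates Tie2 and quietens the endothelium, while Angpt2, released by endothelial cells, acts against it in most settings. Tie1 binds no angiopoietin by itself with high affinity and tunes Tie2. Each tissue here was ground whole, so fewer cells of a type and less RNA per cell cannot be told apart.

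The tissues matched their labels. All 6 cerebellar markers examined were lower in lung, with a median log2 difference of -7.68, and all 6 lung markers were higher, with a median of 8.73. Mean correlations of an array with the others of its group ran from 0.981, in array B46 of dexamethasone lung, to 0.993. Array B46 had a weight of 0.264 and array B39 of dexamethasone cerebellum one of 0.451, where weights estimate reliability across arrays. The 3' minus 5' log2 signal of Gapdh, a sign of RNA length, was 0.45 to 0.71 in dexamethasone lung and 0.84 to 1.04 in vehicle lung, without overlap. Its part in the lung results was not tested. In cerebellum these ranges were 0.05 to 0.18 with dexamethasone and 0.04 to 0.52 with vehicle.

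The genes lie at separate loci, apart from Tek and Tie1, which share a chromosome (RefSeq, GRCm38.p6). Apln is at chrX:48025146-48034853, Aplnr at chr2:85136360-85139923, Tek at chr4:94739086-94874976 and Tie1 at chr4:118471191-118489849. Angpt1 is at chr15:42424667-42676977 and Angpt2 at chr8:18690263-18741562. The 250 bases before the start of Tie1 and Apln are shown because one is a receptor that was low in both treated tissues and the other a ligand that was not. They read 5' to 3' in the direction of the gene, which is the minus strand for both, from chr4:118489850-118490099 and chrX:48034854-48035103. Capitals mark GGAA or its complement TTCC, the core of the sites bound by ETS factors, a family that drives many endothelial genes.
Tie1: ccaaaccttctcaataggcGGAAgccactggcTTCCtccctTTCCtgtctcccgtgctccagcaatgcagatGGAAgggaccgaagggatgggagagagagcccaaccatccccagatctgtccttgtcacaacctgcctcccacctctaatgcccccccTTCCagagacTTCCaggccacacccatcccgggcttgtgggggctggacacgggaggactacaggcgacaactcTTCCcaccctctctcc
Apln: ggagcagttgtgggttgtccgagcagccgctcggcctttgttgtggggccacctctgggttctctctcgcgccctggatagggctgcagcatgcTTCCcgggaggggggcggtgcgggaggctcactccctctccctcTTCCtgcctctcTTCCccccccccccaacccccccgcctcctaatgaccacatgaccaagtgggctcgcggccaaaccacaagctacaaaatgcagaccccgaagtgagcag

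The Tie1 window held 7 such cores and the Apln window 3. Among 32817 promoter windows of this length, 93.4% held at least 1, the median was 3, and 3.82% held 7 or more. The Tek window held 2, at 89 and 59 bases before the start that RefSeq's promoter table takes. That start lies inside the gene's record given above, as do 203 of the window's 250 bases, so the window is not printed. The letters AGAACA, one arm of the glucocorticoid receptor's site, were found on either strand once in the 3 windows, in the part of the Tek window inside the gene's record, and in 16.1% of all windows. None of these 3 windows held AGAACA and TGTTCT spaced by 3 bases, a spacing found in 0.00914% of windows, or GATAA, found in 22.6%. A match to letters is a description and shows no binding.

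Aplnr, the apelin receptor, had the greatest change of the 6 genes. In vehicle cerebellum its 4 arrays read 11.5, 11.9, 11.6 and 11.6, and in dexamethasone cerebellum 9.11, 10.5, 9.82 and 10.2. The groups did not overlap, and array B39 was the lowest. The log2 difference was -1.76 ± 0.32, or 3.40-fold. In vehicle lung Aplnr read 13.0, 13.1, 12.9 and 13.0, the highest level of any group, against 11.0, 11.2, 10.7 and 9.39 in dexamethasone lung. The treated arrays were all lower and more scattered, with an SD of 0.81 against 0.07, and array B46 was lowest. The difference was -2.45 ± 0.32, or 5.47-fold. Without B39 the cerebellar difference was -1.50, and without B46 that of lung was -2.06. A second probe set gave -1.25 in cerebellum and -2.65 in lung, again with no overlap between groups.

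Tek, the receptor Tie2, differed more in cerebellum than in lung. Its vehicle cerebellum arrays read 7.45, 7.63, 7.47 and 7.67 and its dexamethasone cerebellum arrays 6.06, 6.43, 6.16 and 6.57. All 4 treated arrays lay below all 4 controls, a difference of -1.25 ± 0.11, or 2.38-fold. In lung the levels were 10.8, 10.9, 10.6 and 10.8 with vehicle and 10.4, 10.3, 10.4 and 10.4 with dexamethasone. These groups were also apart, but the difference was -0.45 ± 0.11, or 1.36-fold. The lung change minus the cerebellar change was 0.80 ± 0.15.

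Tie1, the partner receptor, had measured changes of like size in the tissues, though it was much dimmer in cerebellum. Its cerebellar levels lay near the array medians, which ran from 5.87 to 6.00. RMA compresses differences of dim probe sets, so the sizes in the tissues are not strictly comparable. It read 6.48, 6.49, 6.24 and 6.15 in vehicle cerebellum and 5.90, 5.32, 5.54 and 5.78 in dexamethasone cerebellum. The groups did not overlap, and the difference was -0.70 ± 0.13, or 1.63-fold. In lung Tie1 read 9.78, 9.96, 9.78 and 9.95 with vehicle and 8.90, 8.90, 9.15 and 8.68 with dexamethasone. Here too every treated array was below every control, with a difference of -0.96 ± 0.13, or 1.94-fold. The lung change minus the cerebellar change was -0.25 ± 0.18, and -0.09 without arrays B39 and B46.

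The measured differences of the ligand genes had opposite signs in the tissues. Groups overlapped in both tissues for Apln and Angpt2 and in lung for Angpt1, so not every sign is established. Apln, the ligand of Aplnr, read 7.70, 8.0, 7.59 and 7.27 in vehicle cerebellum and 7.97, 8.11, 8.15 and 7.99 in dexamethasone cerebellum, groups that overlapped. The difference was 0.41 ± 0.26. In lung it read 9.31, 9.09, 9.17 and 9.47 with vehicle and 8.68, 9.03, 9.16 and 7.55 with dexamethasone, again with overlap. The lung difference of -0.66 ± 0.26 became -0.30 without array B46, the lowest. Apln lies on the X chromosome, and Xist, made by female cells, was above a log2 level of 9 in 2, 1, 3 and 1 of the 4 arrays of dexamethasone cerebellum, vehicle cerebellum, dexamethasone lung and vehicle lung. These uneven counts bear on every gene, not on Apln alone. With Xist as a covariate, the Apln differences in both tissues moved by less than the spread between arrays.

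Angpt1, the activating ligand of Tie2, was lowest in treated cerebellum. Its arrays read 9.16, 9.42, 9.07 and 9.26 in vehicle cerebellum against 8.47, 8.39, 8.16 and 8.55 with dexamethasone. The groups were apart, with a difference of -0.84 ± 0.11, or 1.78-fold. In lung the levels overlapped, at 9.52, 9.59, 9.88 and 9.48 with vehicle and 9.84, 9.65, 9.80 and 9.91 with dexamethasone. The lung difference was 0.18 ± 0.11, and the lung change minus the cerebellar change 1.01 ± 0.16. A dimmer second probe set read -0.21 in cerebellum and 0.21 in lung, so the size of the cerebellar difference depended on the probe set.

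Angpt2, the opposing ligand, had overlapping groups in both tissues. It read 6.72, 6.94, 6.87 and 6.91 in vehicle cerebellum and 7.33, 6.78, 7.16 and 7.02 in dexamethasone cerebellum. The difference was 0.21 ± 0.17, and 0.13 without array B39, the highest. In lung it read 7.89, 8.75, 7.86 and 8.27 with vehicle and 7.90, 7.58, 7.69 and 7.52 with dexamethasone. That difference was -0.52 ± 0.17, and -0.33 without the vehicle array B14, the highest. Its second probe set stood at the 11.4th percentile of all sets by brightness and moved by 0.03 and -0.06.

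**Figure D1:**
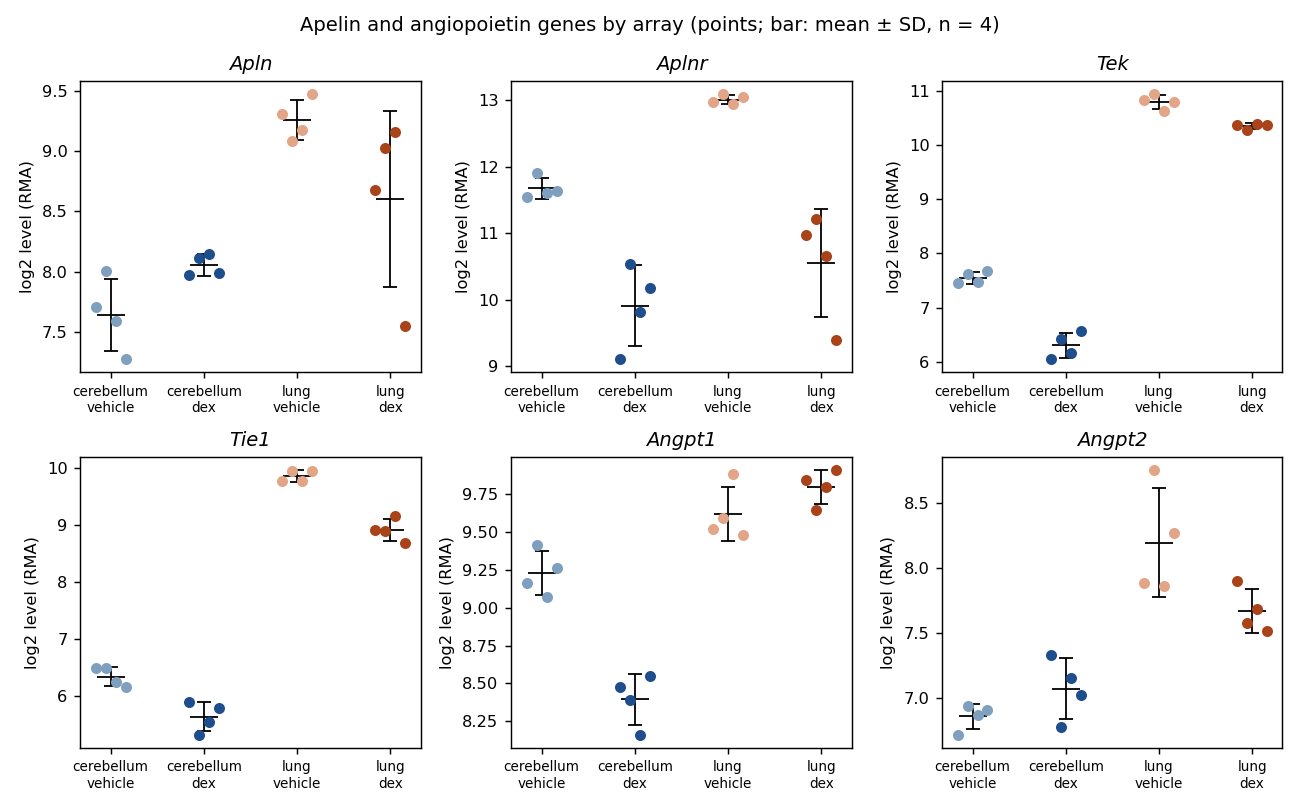
Log2 level (vertical axis) of each of the 6 genes in the 4 groups (horizontal axis), a point per array, with the mean and SD of 4 arrays as bars. Aplnr, Tek and Tie1 have no overlap between vehicle and dexamethasone in either tissue, Angpt1 none in cerebellum, and Apln and Angpt2 overlap in both.

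As a description of the choice, 4 of the 6 genes were among those past an adjusted p of 0.05 as lower in cerebellum, and 4 of 6 in lung. Among all 18193 genes, 1.97% were called lower and 2.84% higher in cerebellum, 4.80% in either direction. In lung 15.5% were called lower and 15.7% higher, 31.2% in all. Genes called lower in both tissues made up 0.621% of all genes, or 113 of them, and 3 of the 6. Arrays did not overlap, with the treated ones lower, for 4 of the 6 genes in cerebellum against 5.44% of all genes, and for 3 of 6 in lung against 15.5%. Since these contrasts chose the group, nothing is read from those counts. The median log2 difference over the 6 genes was -0.77 in cerebellum and -0.59 in lung, beside 0.01 and 0.05 over all genes. Low medians also follow from the choice of the group, and nothing is read from them either.

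**Figure D2:**
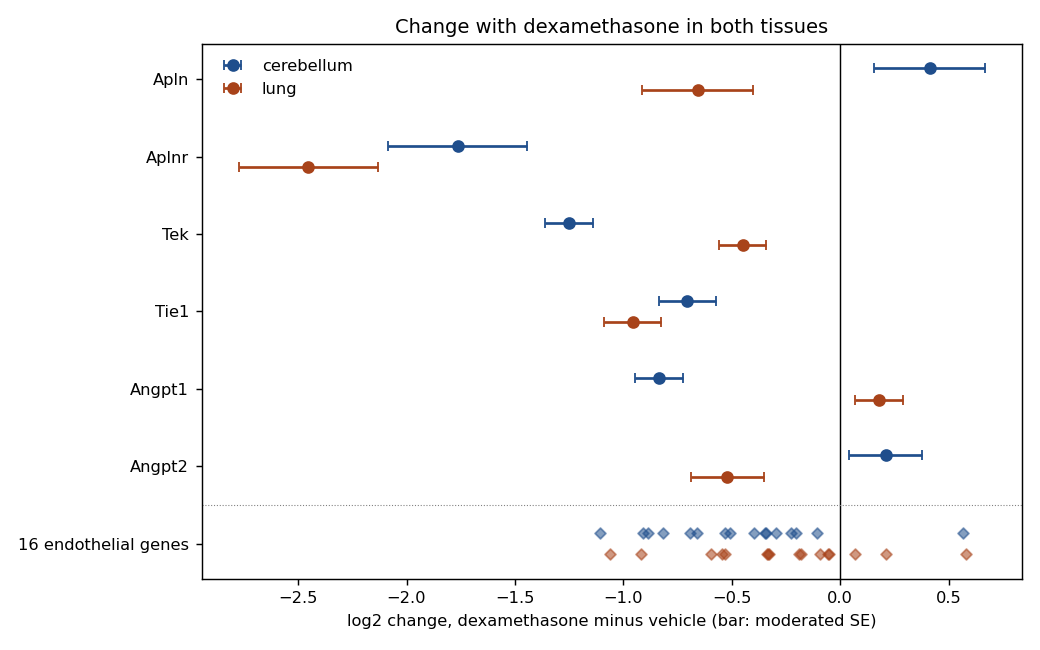
Log2 change with dexamethasone (horizontal axis) of the 6 genes in cerebellum and lung, with moderated SE bars, and of 16 endothelial genes as diamonds. Aplnr is at -1.76 and -2.45, left of all 16 endothelial genes in both tissues. It was chosen for lower levels in these contrasts, so nothing is read from its place. Estimates for Apln, Angpt1 and Angpt2 have opposite signs in the tissues, though groups overlapped in both for Apln and Angpt2 and in lung for Angpt1.

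A list of 16 pan-endothelial genes was set beside them, since the receptors are made chiefly by endothelium. In cerebellum 6 of 16 fell and 1 rose, with a median of -0.45, against the shares of all genes given above. Over these 16 and the partners described further on, the lung and cerebellar changes differed for 13 of 52 genes, beside 21.3% of all genes. VE-cadherin (Cdh5), of the endothelial junction, fell by 1.11 ± 0.12 (limma adjusted p = 6.19e-05). The tight junction protein claudin 5 (Cldn5) fell by 0.89 ± 0.13 (limma adjusted p = 0.000695). The adhesion molecule Esam fell by 0.66 ± 0.09 and the secreted vessel protein Egfl7 by 0.69 ± 0.12, with limma adjusted p = 0.000539 and 0.00242. In lung 6 of 16 fell and 1 rose, with a median of -0.26. The sialomucin endomucin (Emcn) fell by 1.06 ± 0.16 and the VEGF receptor Kdr by 0.92 ± 0.15, with limma adjusted p = 7.6e-05 and 0.000163. Cdh5 fell by 0.55 ± 0.12 and the guidance receptor Robo4 by 0.53 ± 0.14, with limma adjusted p = 0.00162 and 0.00968. The mean level over the 16 genes was 7.17 to 7.28 in dexamethasone cerebellum and 7.56 to 7.88 in vehicle cerebellum, and 10.3 to 10.4 against 10.5 to 10.7 in lung. The part of this shift in the receptors' values was not tested. None of the 16 had as large a fall as Aplnr in either tissue. None exceeded Tek in cerebellum and 5 did in lung, while 4 and 1 exceeded Tie1.

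Subtracting the mean of these 16 genes in each array gave each gene's change relative to endothelial RNA. Aplnr, Tek and Tie1 were chosen for lower levels in both treated tissues, so low relative values are favoured by the choice. Relative to endothelial RNA, Aplnr was at -1.30 in cerebellum and -2.18 in lung, and treated arrays stayed below controls in both. Tek was at -0.78 in cerebellum, apart, and at -0.18 in lung, where arrays overlapped. Tie1 had the other pattern, -0.24 with overlap in cerebellum and -0.68 without overlap in lung. The cerebellar value of Tie1 was -0.14 without array B49 and -0.15 without B78. Angpt1 was at -0.37 in cerebellum, apart, and at 0.45 in lung, overlapping. Apln and Angpt2 were at 0.88 and 0.68 in cerebellum, both with every treated array above every control, and at -0.39 and -0.25 in lung, overlapping. In cerebellum the reference itself was lower with dexamethasone, at a mean of 7.22 against 7.68. Without the reference, Apln and Angpt2 differed there by 0.41 and 0.21, with overlap. Without array B46 the lung value of Apln was -0.04, and without B14 that of Angpt2 was -0.09. The cerebellar values depended on the reference. Against the median rather than the mean of the 16 genes they were -1.85 for Aplnr, -1.33 for Tek, -0.79 for Tie1, -0.92 for Angpt1, 0.33 for Apln and 0.13 for Angpt2. With that reference Tie1 was apart in cerebellum, and Apln and Angpt2 overlapped.

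**Figure D3:**
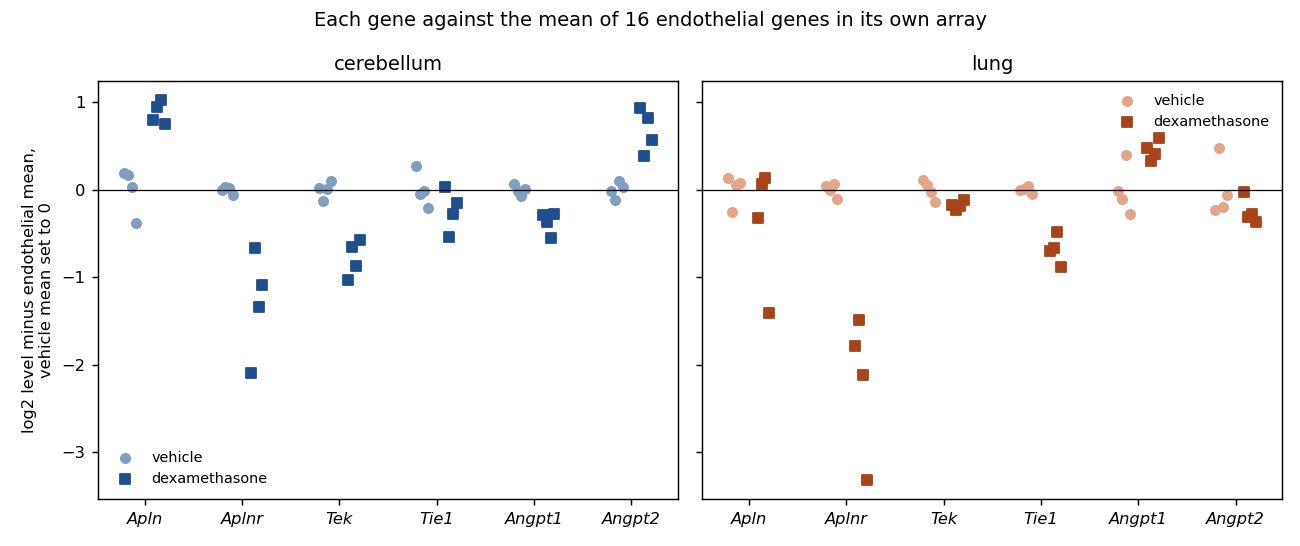
Log2 level of each gene minus the mean of 16 endothelial genes in the same array (vertical axis), set to 0 at the vehicle mean of each tissue. Circles are vehicle and squares dexamethasone arrays, 4 each. Aplnr is lower in every treated array of both tissues. Tek, Angpt1, Apln and Angpt2 are apart in cerebellum and Tie1 in lung. Against the endothelial median, Tie1 was also apart in cerebellum, and Apln and Angpt2 overlapped there.

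Differences between partners were taken within each array. The measured shifts of Angpt2 minus Angpt1 and of Tie1 minus Tek had opposite signs in the tissues. Arrays overlapped in lung for Angpt2 minus Angpt1 and in cerebellum for Tie1 minus Tek, so not every sign is established. Aplnr minus Apln moved down in both tissues. Angpt2 minus Angpt1 moved by 1.05 in cerebellum, where treated and vehicle arrays did not overlap, and by -0.70 in lung, where they did. The cerebellar value combined -0.84 for Angpt1 and 0.21 for Angpt2, each by its brightest probe set. The dimmer second sets read -0.21 and 0.03 there, so the size of this shift depended on the probe set. Tie1 minus Tek moved by 0.55 in cerebellum, with overlap and where Tie1 was dim, and by -0.51 in lung, with none. Aplnr minus Apln, receptor against ligand, moved by -2.18 and -1.80, with no overlap in either tissue. These are the members' changes combined and carry no test.

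**Figure D4:**
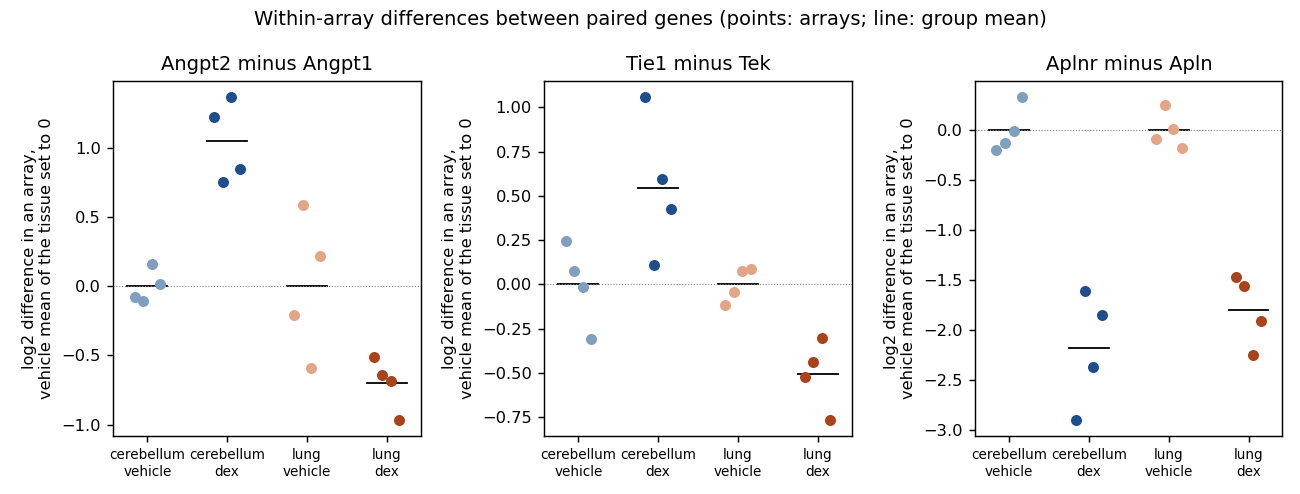
Within-array log2 difference of 3 pairs of genes (vertical axis), set to 0 at the vehicle mean of each tissue, in the 4 groups; points are arrays and lines group means. Angpt2 minus Angpt1 moves up in cerebellum (1.05) and down in lung (-0.70, with overlap), while Aplnr minus Apln moves down in both. Each gene is read by its brightest probe set, and the Angpt1 change in cerebellum depended on the probe set.

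Lung and cerebellum of vehicle mice were then compared, a contrast that did not choose the genes. All 6 were called, as were 57.7% of all genes, and all 6 were higher in lung, as were 5086 of 18193 genes called. By each gene's brightest probe set, lung arrays lay above cerebellar arrays without overlap, as did 27.4% of all genes. The second sets of Angpt1 and Angpt2 overlapped, at means of 6.288 and 4.263 in vehicle lung against 5.965 and 4.165 in vehicle cerebellum. The median log2 difference of the 6 genes was 1.48, beside 0.00 over all genes. Tie1 was 11.5-fold higher (3.53 ± 0.13, limma adjusted p = 3.09e-13) and Tek 9.45-fold higher (3.24 ± 0.11, limma adjusted p = 8.52e-14). All 16 endothelial genes were also higher in lung, by 1.90 to 4.25, with a median of 2.74. Apln was 3.07-fold higher (1.62 ± 0.26, limma adjusted p = 3.05e-05). Aplnr and Angpt2 were each 2.52-fold higher (1.34 ± 0.32 and 1.33 ± 0.17, limma adjusted p = 0.00162 and 2.56e-06). Angpt1 differed least, by 1.31-fold (0.39 ± 0.11, limma adjusted p = 0.0062, and 0.00121 to 0.027 over 25 alternatives). In dexamethasone mice, lung stood above cerebellum by 4.04 for Tek, 3.28 for Tie1, 1.41 for Angpt1, 0.65 for Aplnr, 0.60 for Angpt2 and 0.55 for Apln.

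The order of the 4 groups differed among the genes. Tek and Tie1 were ordered from dexamethasone cerebellum (6.30 ± 0.24 and 5.63 ± 0.26, SD, n = 4) through vehicle cerebellum and dexamethasone lung to vehicle lung (10.8 ± 0.13 and 9.87 ± 0.10), each step without overlap. Aplnr had both treated groups lowest, at 9.91 ± 0.61 in cerebellum and 10.6 ± 0.81 in lung, which overlapped. Vehicle cerebellum, at 11.7 ± 0.16, stood above both of them, and vehicle lung, at 13.0 ± 0.07, above all. For Angpt1 dexamethasone cerebellum (8.39 ± 0.17) lay below vehicle cerebellum (9.23 ± 0.15), and the lung groups, which overlapped, lay above both. For Angpt2 neither tissue's treatment groups separated, and for Apln every neighbouring pair in the order overlapped.

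Beyond the 6 genes, 21 partners of the angiopoietin and Tie system were followed. Counts here and in the lists that follow are to be read against the shares of all genes called. These were 1.97% lower and 2.84% higher in cerebellum, and 15.5% lower and 15.7% higher in lung. In cerebellum 2 fell and 1 rose, with a median of 0.03. Ptprb (VE-PTP), the phosphatase that dephosphorylates Tie2, fell by 0.57 ± 0.10 (limma adjusted p = 0.00338, and 0.0846 with its probe sets averaged). The transcription factor Foxo3, held inactive by Akt, fell by 0.57 ± 0.15 (limma adjusted p = 0.0339), a call lost with averaged probe sets (0.264), with Xist as a covariate (0.0601) and without array B49, B50, B52, B79 or B80. The adaptor Nck1 rose by 0.97 ± 0.09 (limma adjusted p = 4.11e-05). In lung 6 of 21 fell and 4 rose, with a median of -0.07. Svep1, an extracellular matrix protein, fell by 0.79 ± 0.10 and the Ras GTPase-activating protein Rasa1 by 0.51 ± 0.08, with limma adjusted p = 2.55e-05 and 0.000136. Ptprb fell by 0.49 ± 0.10 (limma adjusted p = 0.00136), and the PI3-kinase subunit Pik3cb rose by 0.60 ± 0.14 (limma adjusted p = 0.00406). The count in cerebellum was 1 with averaged probe sets and 6 with array weights.

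Of the apelin system, 15 partners were followed. None was called in cerebellum by limma, where 4 had an unadjusted p under 0.05, and 6 alternatives called 1, among them those without array B78 and without B46. The brightest 2 there were the G protein subunits Gnai2, at -0.27 ± 0.09 (limma adjusted p = 0.0907, and 0.0374 with a variance trend and robust estimation), and Gna13, at -0.02 ± 0.08. In lung 3 of 15 fell and 2 rose, with a median of 0.06, a share of called genes near the 31.2% of all genes. Mef2c, a transcription factor of muscle and endothelium, fell by 1.63 ± 0.13, or 3.10-fold (limma adjusted p = 1.77e-07). Nos3, the endothelial nitric oxide synthase that apelin signalling activates, fell by 0.82 ± 0.14 (limma adjusted p = 0.000212). Apela, the other peptide ligand of Aplnr, rose by 0.51 ± 0.14 and the arrestin Arrb2 by 0.56 ± 0.13, with limma adjusted p = 0.00935 and 0.00403. Apela is dim, at a mean of 4.18 in vehicle and 4.69 in dexamethasone lung, near the lowest values of the arrays.

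**Figure D5:**
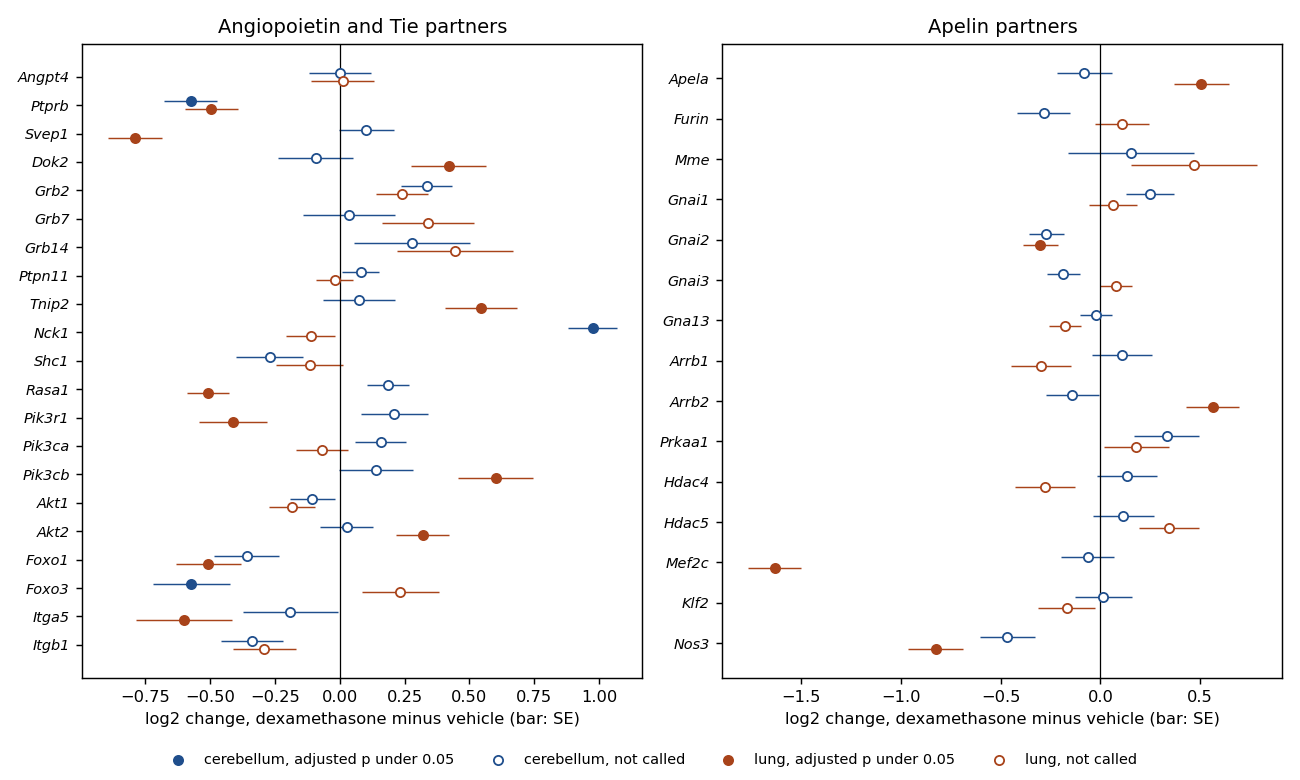
Log2 change with dexamethasone (horizontal axis, with SE) of 21 angiopoietin and Tie partners and 15 apelin partners in cerebellum and lung; filled points have an adjusted p under 0.05. In cerebellum only Ptprb, Foxo3 and Nck1 are filled, and in lung Mef2c is farthest left, at -1.63.

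Mural cells, the pericytes and smooth muscle that make Angpt1, were followed through 10 markers. In cerebellum 5 fell and none rose, with a median of -0.47 and a mean level of 7.48 to 7.61 with dexamethasone against 7.93 to 7.97 with vehicle. There the receptor Pdgfrb fell by 0.72 ± 0.10 and the potassium channel subunit Abcc9 by 0.76 ± 0.11, with limma adjusted p = 0.0005 and 0.000765. In lung 8 of 10 fell and 1 rose, with a median of -0.94, while Angpt1 itself read 0.18. Pdgfrb fell there by 1.35 ± 0.10 and the proteoglycan Cspg4 by 1.59 ± 0.13, with limma adjusted p = 4.79e-08 and 1.5e-07. Whether mural markers have a part in the Angpt1 values was not tested.

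Shorter lists covered vessel subtypes, and their counts are to be read against the same shares of all genes. Of 6 venous genes, 2 fell in cerebellum and 3 in lung, none rising. In lung the venous transcription factor Nr2f2 fell by 0.59 ± 0.13 (limma adjusted p = 0.00285). The amino acid transporter Slc38a5 fell in both, by 1.24 ± 0.24 and 0.89 ± 0.24, with limma adjusted p = 0.00594 and 0.0085. Without array B79 the cerebellar count was 1. Ackr1, of the venous list, read 10.9 in vehicle cerebellum against 5.68 in vehicle lung, and the source of its cerebellar RNA was not tested. Of 8 genes listed as arterial, 1 fell in cerebellum, and in lung 5 fell and 1 rose. Among those that fell in lung was the gap junction protein Gja4, by 1.68 ± 0.16 (limma adjusted p = 1.04e-06). Another was Stmn2, by 0.63 ± 0.13 (limma adjusted p = 0.00125). Stmn2 read 13.1 in vehicle cerebellum against 8.78 in vehicle lung, so it is not a marker of arteries alone here. Fbln5 was the arterial gene called in cerebellum, at -0.50 ± 0.13 (limma adjusted p = 0.0313), and 0.613 with averaged probe sets. Leaving out any 1 of arrays B81, B79, B78, B52, B50 and B49 also ended that call, while the arterial count was 2 without B46. Of 9 lung capillary genes measured, the C-type lectin Cd93 fell in both tissues, by 0.85 ± 0.08 and 0.53 ± 0.08, with limma adjusted p = 4.9e-05 and 0.00015. Lpl, the lipoprotein lipase, fell by 0.91 ± 0.21 in cerebellum and rose by 1.25 ± 0.21 in lung, with limma adjusted p = 0.0201 and 0.000287, the first being 0.105 with averaged probe sets. The cerebellar call was also lost without array B39, B79 or B80. In all, 2 of the 9 fell in cerebellum, 1 without array B39, B79 or B80, and 4 fell and 2 rose in lung. Ednrb, of the same list, read 11.8 in vehicle cerebellum against 10.1 in vehicle lung. Cerebellar counts of these subtype lists may therefore not track vessels alone.

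The genes whose arrays ran most alike to each of the 6 were sought among 9096 genes brighter than the median, by Pearson's r over 16 arrays after removing each tissue's mean. The points share arrays and include the treatment difference, so r is a description. For Tek they were Esam (0.96), Cd93 (0.96) and the basement membrane collagen Col4a1 (0.94). For Aplnr they were the sialomucin Cd34 (0.97), the hedgehog pathway factor Gli3 (0.96) and the matrix protein Postn (0.96). For Tie1 they were the integrin Itga6 (0.95), the semaphorin receptor Plxnd1 (0.95) and Tmem98 (0.95). For Apln they were the sterol enzyme Dhcr7 (0.96), Pea15a (0.94) and Mageh1 (0.93). For Angpt1 they were Chic2 (0.93), the lysosomal protein Lamp2 (0.93) and Zfp560 (0.93). For Angpt2 the values were lower, with Fam110b (0.87), Nipsnap1 (0.84) and the globin Cygb (0.84). Among the 6 themselves r was 0.86 for Aplnr with Tie1, 0.77 for Aplnr with Tek, 0.73 for Tek with Tie1 and 0.77 for Tek with Angpt1. Aplnr, Tek and Tie1 were chosen for lower levels in both treated tissues, so high r among them follows from the choice. It was -0.48 for Apln with Angpt1 and -0.01 for Tek with Angpt2.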

How the data were processed

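Per the labels' protocols, 10 µg of total RNA per sample was made into biotin-labelled cRNA for Affymetrix mouse arrays. The deposited values are log2 levels made with RMA by the authors, per the submitters' processing notes, which give no version or settings. RMA gives dim probe sets a value and compresses their differences. Arrays give no read depth, and 4 per group limits the precision. All share a hybridization date, so no batch was tested.

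Of 45101 probe sets, 34945 had 1 gene symbol, 932 several and 9160 none in the platform annotation, besides 64 controls. Symbols were updated through RefSeq for 18032 of 18193 genes. A gene was read by its brightest probe set, with no filter on dim genes. Each gene was fitted in limma 3.58.1 (R 4.3.3) with 4 group means and eBayes. P-values were adjusted by Benjamini-Hochberg over 18193 genes and called under 0.05. P-values rest on the spread between these 4 arrays per group.

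The 6 genes and all 17 gene lists were chosen with earlier results of these data known. Genes named from a list came from its up to 4 called genes with the smallest adjusted p, or its brightest 2 where none was called, and for each of the 6 genes the 3 with the highest correlation. Alternatives were averaged or separate probe sets, a filter on dim genes, repeated normalization (quantile or cyclic loess), a single tissue, a variance trend, array weights, Xist as a covariate and each array left out. Leaving out B39 and B46 together was added after seeing the data. Promoter windows came from RefSeq (GRCm38.p6).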

Additional observations from a re-analysis of the deposited data

Results flagged for a closer look

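Of 116 groups of 4 arrays examined for the 6 genes, their partners and the endothelial genes named, 11 had an array far from the other 3 by Dixon's test, and chance gives about 5% of groups. The second Angpt1 probe set read highest in array B39 of dexamethasone cerebellum, at 6.09. In the same group B39 was also highest for Foxo3 (9.10) and Ptprb (7.60) and lowest for Nos3 (6.46), and B50 was highest for Mef2c (9.92). In dexamethasone lung, array B46 was lowest for Apela (4.32) and highest for Nos3 (7.58). In vehicle lung, B12 was lowest for Gnai2 (12.3) and Mef2c (10.7), and B22 was highest for Svep1 (8.71). In vehicle cerebellum, B80 was lowest for Apela (3.69).

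By the brightest probe sets, treated arrays lay on opposite sides of the vehicle mean in the tissues for Apln and Angpt1. The lung change minus the cerebellar change was -1.07 ± 0.36 for Apln and 1.01 ± 0.16 for Angpt1. For Apln it came as near 0 as -0.718 with 1 array left out. For Angpt1 it was 0.715 with averaged probe sets. The second Angpt1 set lacked the pattern, with B39 at 6.087 above the vehicle cerebellum mean of 5.965 and B46 at 6.186 below the vehicle lung mean of 6.288. Neither difference was tested. In the partner and endothelial lists that difference was tested by an interaction contrast, and 13 of 52 genes passed, beside 21.3% of all genes. Of these, 11 were among those named by the rule. By limma's adjusted p, Mef2c (-1.57, 2.88e-05), Nck1 (-1.09, 3.3e-05), Svep1 (-0.89, 0.000452), Rasa1 (-0.70, 0.000391), Foxo3 (0.80, 0.0111), Arrb2 (0.70, 0.014) and Esam (0.47, 0.0143) kept their calls under every alternative run. Egfl7 (0.76, 0.00335) and Cdh5 (0.56, 0.0205) lost theirs with averaged probe sets, at 0.0571 and 0.127. Flt1 (-0.62, 0.0193) lost its call with averaged probe sets (0.774) and without arrays B39 and B46 (0.0602). Apela (0.59, 0.0403) lost its call under 13 alternatives, with adjusted p between 0.066 and 0.0883 there.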

How the results depend on the processing

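Over 36 results on the 6 genes and 708 alternative values, no sign changed, and 695 values kept their call or moved by less than the spread between arrays. Those that moved more came from the choice of probe set or of the endothelial reference. The second probe set gave -1.25 for Aplnr, -0.21 for Angpt1 and 0.026 for Angpt2 in cerebellum, and -0.063 for Angpt2 in lung. Averaged probe sets gave -0.52 for Angpt1 in cerebellum, and 0.71 for Angpt1 and -0.41 for Angpt2 in the lung change minus the cerebellar change. With the endothelial median as reference, the cerebellar values were 0.33 for Apln, -1.85 for Aplnr, -1.33 for Tek, -0.79 for Tie1, -0.92 for Angpt1 and 0.13 for Angpt2. The causes were not tested. By brightest or averaged probe sets, all 6 genes stayed higher in vehicle lung than in vehicle cerebellum under every alternative run. Second probe sets were not among the alternatives for this contrast, and those of Angpt1 and Angpt2 overlapped between the tissues. Over all genes, 874 were called in cerebellum, 1699 with array weights, and 528 to 1229 with 1 array left out, the fewest without B50 and 557 without B79. The lung count of 5679 ran from 4860 to 5877. No paired analysis was possible because no replicate number is shared between groups. Dim probe sets such as the second ones of Angpt1 and Angpt2 limit what can be read from them.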

Other observations

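In lung 31.2% of all genes were called and in cerebellum 4.80%, which the counts of each list below are to be read against. All 8 proliferation genes measured fell in lung, with a median of -2.44, led by the kinetochore gene Cenpf (-3.95 ± 0.16, limma adjusted p = 1.67e-10). In cerebellum limma called none, 1 having an unadjusted p under 0.05, though Mki67, at -0.64, passed with array weights (0.0366) and without array B46 (0.0201). Of 9 genes that glucocorticoids induce in many tissues, 7 rose in lung, among them Fkbp5 by 2.33 ± 0.27 (limma adjusted p = 6.45e-06). None was called in cerebellum, 1 having an unadjusted p under 0.05, and Klf9, at 0.53 (limma adjusted p = 0.0784), passed with array weights (0.00391), with the cerebellar arrays alone (0.038) and without B46 (0.0113).

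Of 10 tip cell genes, the netrin receptor Unc5b fell in lung by 1.23 ± 0.14 (limma adjusted p = 5.06e-06). The laminin-binding Nid2 fell in both tissues, by 0.73 ± 0.18 and 1.36 ± 0.18, with limma adjusted p = 0.0266 and 2.4e-05. The cerebellar call was lost without any 1 of B49, B50, B52, B78, B79 or B81, and the count there was 2 without B39. In lung 4 of the 10 fell and 2 rose, Igfbp3 by 2.60 ± 0.38 (limma adjusted p = 6.19e-05). Of 5 lymphatic genes, Reln and Mmrn1 rose in lung, by 2.46 ± 0.17 and 1.88 ± 0.26, with limma adjusted p = 2.9e-08 and 3.14e-05. The others, Prox1, Lyve1 and Flt4, were not called in lung, at 0.17, 0.38 and 0.06. For cerebellum limma called none of the 5, where 1 had an unadjusted p under 0.05. Reln read 12.9 in vehicle cerebellum against 7.48 in vehicle lung, and the source of its cerebellar RNA was not tested. The low-oxygen genes Bnip3 and Slc2a1 rose in lung, by 1.30 ± 0.19 and 1.25 ± 0.24, with limma adjusted p = 5.32e-05 and 0.000847, 3 of 9 in all and 5 without arrays B39 and B46. Of 7 fibroblast genes, Col1a1 fell by 1.16 ± 0.16 in cerebellum and 1.62 ± 0.16 in lung, with limma adjusted p = 0.000539 and 9.84e-07. In all, 2 of the 7 fell in cerebellum and 4 in lung. Of 7 macrophage genes, 3 fell in cerebellum, 1 without array B39, B52 or B79, while in lung 4 rose and 2 fell. Tyrobp, an adaptor of myeloid cells, fell by 0.86 ± 0.14 in cerebellum and rose by 1.20 ± 0.14 in lung, with limma adjusted p = 0.00153 and 5.19e-06. Among 4 erythroid genes, Alas2 rose in lung, by 0.81 ± 0.22 (limma adjusted p = 0.00842), 3 of the 4 rising without array B46 or B19, and limma called none in cerebellum at either threshold.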
